A study of Mus musculus with 6 samples.

Results

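Transcripts of 9 genes for trans-synaptic adhesion proteins were examined in the hippocampus of mice with a forebrain-targeted deletion in Ep300 and of their control littermates. The genes were the neurexins Nrxn2 and Nrxn3, the neuroligins Nlgn1, Nlgn2 and Nlgn3, and the leucine-rich repeat transmembrane genes Lrrtm1, Lrrtm2, Lrrtm3 and Lrrtm4. They were chosen by name, with earlier results of these data known. Each of the 9 was found by its Ensembl identifier among the 55471 genes of the count table.

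Neurexins are membrane proteins of the presynaptic terminal whose extracellular part reaches across the synaptic cleft. Neuroligins and the LRRTM proteins sit in the postsynaptic membrane and bind them there, and this bridge takes part in the assembly and function of synapses. Neuroligin 1 is found mainly at excitatory synapses, neuroligin 2 at inhibitory ones and neuroligin 3 at both, whereas LRRTM proteins act mostly at excitatory synapses.

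The series compared hippocampal RNA of 3 p300-ifKO mice and 3 control mice, with 1 single-end library of 50 base reads per mouse. An ifKO is an inducible forebrain knockout: tamoxifen activates a creERT2 recombinase that the Camk2a promoter drives in excitatory forebrain neurons, and this recombines the floxed alleles, here of Ep300, which encodes the lysine acetyltransferase p300. All 6 mice were C57BL/6, 3 to 6 months of age, and were given tamoxifen (20 mg/ml in corn oil) in 5 administrations on alternate days. The study's methods give the mice of this comparison as male. Per the protocol the controls were littermates without creERT2, although the description of each control library names Camk2a_creERT2. The recombination leaves a truncated p300 without acetyltransferase activity, per the study's methods. The tissue was whole hippocampus, which also holds interneurons and glia in which the driver is not active, so a change in the excitatory neurons can be diluted, and fewer cells of a type and less RNA per cell cannot be told apart.

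Libraries held between 23151568 and 28433823 counts, and values below are normalized counts (counts divided by the DESeq2 size factor of the library). Ep300 had 1545, 1474 and 2334 normalized counts in controls and 478, 1350 and 912 in p300-ifKO mice 1, 2 and 3, so that every p300-ifKO mouse lay below every control but mouse 2 lay close to them. Its DESeq2 log2 fold change was -0.97 (SE 0.33, unadjusted p = 0.00369, adjusted p = 0.991). The value for Crebbp, which encodes the related acetyltransferase CBP, was -0.055 (SE 0.11, DESeq2 adjusted p = 0.991). Across the 32773 genes tested, DESeq2 called 2 (0.0061%) at an adjusted p below 0.05, both with more counts in the p300-ifKO group: Arsi and Esr1. Esr1, the gene of the receptor whose hormone binding part is fused to Cre in creERT2, had 87.2 to 109 normalized counts in controls and 2416 to 4217 in p300-ifKO mice. The labelled tissue carried its markers: the 8 genes listed for hippocampal excitatory neurons summed to between 156994.7 and 179668.5 normalized counts in controls and between 153945.8 and 183057.9 in p300-ifKO mice. The 6 interneuron markers summed to 21745.3 to 24955.9 and 20877.6 to 23019.3, and the 5 astrocyte markers to 85684.9 to 89159.2 and 77269.9 to 86601.6, in the same order. The 5 oligodendrocyte markers summed to 97240.2 to 133483.1 and 105977.8 to 133572.9, the 2 precursor markers to 1949.9 to 2226.7 and 1404.8 to 2050.1, and the 5 microglial markers to 6835.1 to 7402.5 and 7336.1 to 7610.5. Markers of endothelium (4 genes, 4131 to 4348.2 and 4103.8 to 4292), choroid plexus (3 genes, 138.7 to 2861.4 and 861.4 to 4554.8) and blood (3 genes, 1673.6 to 3285.9 and 1173.5 to 2939.6) overlapped between the groups as well. DESeq2 called none of the markers in any of these lists.

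Annotated transcription start regions of several of the genes are shown because a count per gene sums all of them, and because Nrxn3 and Nlgn1 turned out low in the same mouse whereas Nlgn2 did not. RefSeq (GRCm38.p6) gave 10 windows for 6 of the 9 genes (not for Nrxn2, Nlgn3 and Lrrtm2), 3 of them for Nrxn3, which has alternative promoters for a long and a short form of the protein. Each line runs 5′ to 3′ on the strand of the gene, from 120 bases before the start to 30 bases after it, with matches to TGACG in capitals. First and last refer to the windows given here. The annotated Nrxn3 gene begins upstream of its first window, at chr12:88722876. The bases before the first listed Nrxn3 start end in a pyrimidine-rich stretch and ag, as introns do. That window may thus lie at an internal exon rather than a promoter, and whether RNA starts there was not tested.
Nrxn3 first start, chr12:88794384-88794533, + strand: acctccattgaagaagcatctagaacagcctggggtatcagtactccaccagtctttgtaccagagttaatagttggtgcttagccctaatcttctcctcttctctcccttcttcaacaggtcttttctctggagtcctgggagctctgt
Nrxn3 last start, chr12:89812363-89812512, + strand: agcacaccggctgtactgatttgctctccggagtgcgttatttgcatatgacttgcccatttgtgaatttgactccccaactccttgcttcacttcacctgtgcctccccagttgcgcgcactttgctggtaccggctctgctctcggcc
Nlgn1 first start, chr3:26331880-26332029, - strand: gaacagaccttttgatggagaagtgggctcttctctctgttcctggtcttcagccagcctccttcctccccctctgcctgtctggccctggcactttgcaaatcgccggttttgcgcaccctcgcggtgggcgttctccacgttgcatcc
Nlgn2, chr11:69837755-69837904, - strand: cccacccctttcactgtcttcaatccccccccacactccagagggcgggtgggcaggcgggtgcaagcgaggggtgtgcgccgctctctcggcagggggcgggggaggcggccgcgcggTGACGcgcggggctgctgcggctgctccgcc
These 4 windows differ in base composition over the full window, from 250 bases before the start to 50 after it. GC content was 47.33% and 60.67% in the first and the last Nrxn3 window, 55.67% in the first Nlgn1 window and 68.67% in that of Nlgn2. The median over all 32851 windows was 52.67%. CG dinucleotides numbered 2, 16, 14 and 26 in the same order. The cAMP response element TGACGTCA, the site of a family of factors that recruit CBP and p300, was searched on both strands and was found in none of the 10 windows, as against 1.79% of all windows. Its shorter form TGACG, which lies within the former, was found in 20.8% of all windows and in that of Nlgn2 alone among the 10, starting at the last base before the start. TATAAA, present in 13.6% of all windows, matched at 2 places in the first of the windows of Lrrtm4. A match is a string of letters and no evidence of binding.

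Neurexin transcripts were lower on average in p300-ifKO mice, but neither passed the test over all genes. Nrxn2 (ENSMUSG00000033768, chr19:6418731-6544169, + strand, 13812 exonic bases) had 5795, 5489 and 5760 normalized counts in controls and 4214, 5313 and 5000 in p300-ifKO mice. The 3 p300-ifKO values all lay below the lowest control, with mouse 1 the farthest away. Group means were 5681 ± 167 and 4842 ± 566 (SD, n = 3 each). The DESeq2 log2 fold change was -0.23 (SE 0.13, 95% interval -0.49 to 0.027, unadjusted p = 0.079, adjusted p = 0.991). Nrxn2 was the only 1 of the 9 genes whose groups did not overlap with p300-ifKO lower, an arrangement found in 3.42% of all genes tested. Genes annotated on the opposite strand, Gm14964 and Slc22a12 with at most 126 normalized counts each, cover 6.44% of its exonic bases.

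Nrxn3 (ENSMUSG00000066392, chr12:88722876-90334935, + strand, 12680 exonic bases) had 5262, 5240 and 5703 normalized counts in controls and 2971, 5756 and 4405 in p300-ifKO mice. The controls lay close together, whereas the p300-ifKO mice were spread from well below the lowest control to above the highest. Means were 5402 ± 261 in controls and 4377 ± 1393 in p300-ifKO mice (SD, n = 3 each), which is a coefficient of variation of 4.84% against 31.8%. The DESeq2 log2 fold change was -0.30 (SE 0.23, 95% interval -0.75 to 0.14, unadjusted p = 0.181, adjusted p = 0.991). Without p300-ifKO mouse 2, which had the highest Ep300 count of its group, Nrxn3 had a log2 fold change of -0.55 and DESeq2 called it lower (adjusted p = 0.0314). That comparison of 2 with 3 mice called 938 genes in all, of which 445 (1.39% of those tested) were lower. Mouse 2 was also the only p300-ifKO mouse whose levels, relative to the other mice, rose with the exonic length of genes (Spearman rho 0.572). Without p300-ifKO mouse 1 the log2 fold change of Nrxn3 was -0.090 (DESeq2 adjusted p = 1).

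**Figure D1:**
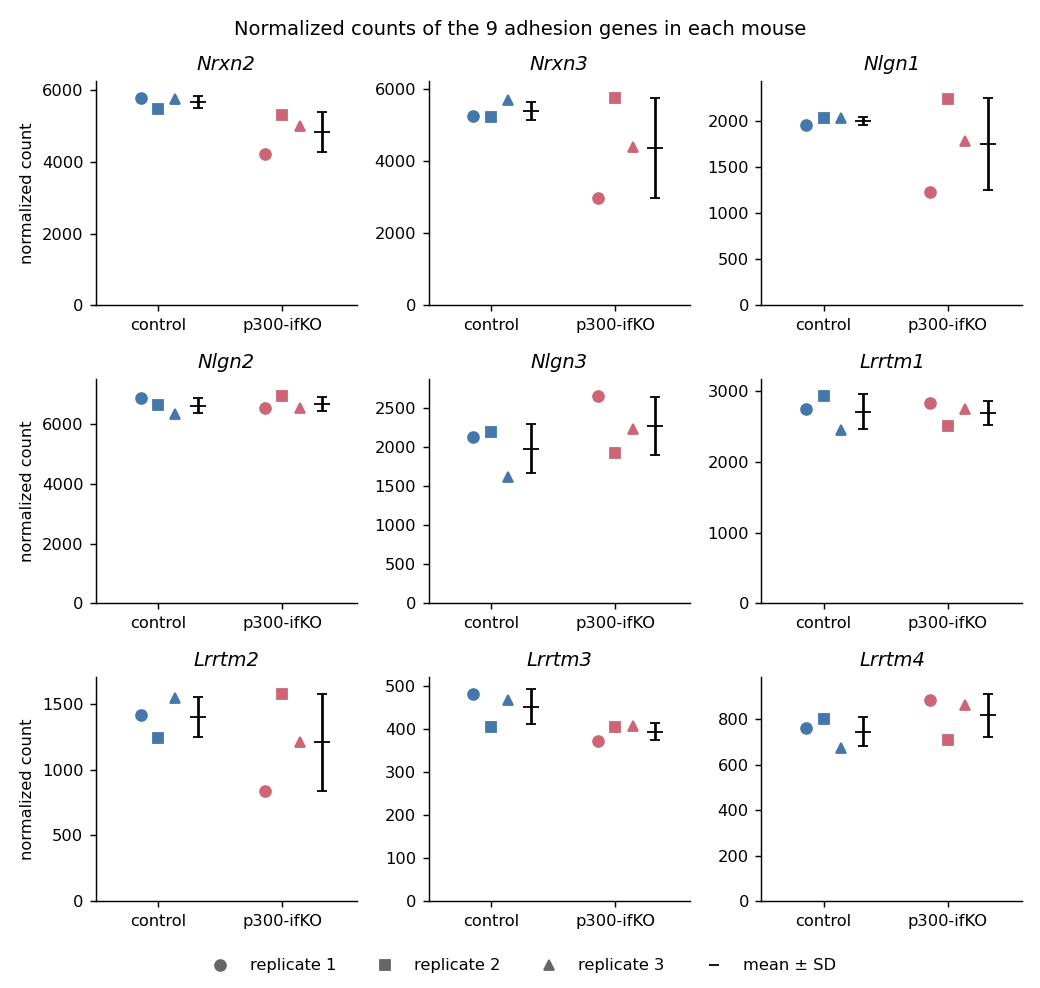
Normalized counts (counts divided by the DESeq2 size factor, linear axis from 0) of the 9 genes in each of 3 control (blue) and 3 p300-ifKO (red) mice, with marker shape for the replicate number and bars for mean ± SD. Replicate 1 of the p300-ifKO group is the lowest of the 6 mice for Nrxn2, Nrxn3, Nlgn1, Lrrtm2 and Lrrtm3 and the highest for Nlgn3 and Lrrtm4, while Nlgn2 and Lrrtm1 overlap closely.

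Neuroligin transcripts went different ways, and none passed the test. Nlgn1 (ENSMUSG00000063887, chr3:25426215-26332460, - strand, 13422 exonic bases) had 1952, 2028 and 2026 normalized counts in controls and 1231, 2230 and 1785 in p300-ifKO mice. The controls varied by only 2.16% (coefficient of variation) and the p300-ifKO mice by 28.6%, on both sides of the control range. Means were 2002 ± 43.2 and 1749 ± 501 (SD, n = 3 each), with a DESeq2 log2 fold change of -0.19 (SE 0.21, 95% interval -0.61 to 0.22, unadjusted p = 0.362, adjusted p = 0.991). Its direction rested on p300-ifKO mouse 1, without which the log2 fold change was 0.0032. A830092H15Rik, on the opposite strand over 9.16% of the exonic bases of Nlgn1, had at most 8.84 normalized counts.

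Nlgn2 (ENSMUSG00000051790, chr11:69823122-69837784, - strand, 5785 exonic bases) had 6850, 6620 and 6339 normalized counts in controls and 6527, 6939 and 6540 in p300-ifKO mice. Values of both groups were interspersed, and no p300-ifKO mouse stood apart from the controls. Means were 6603 ± 256 and 6668 ± 234 (SD, n = 3 each). The DESeq2 log2 fold change of 0.014 had an SE of 0.10 and a 95% interval of -0.18 to 0.21 (unadjusted p = 0.887, adjusted p = 0.997). Nlgn2 had the smallest spread among p300-ifKO mice of the 9 genes, with a coefficient of variation of 3.51%.

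Nlgn3 (ENSMUSG00000031302, chrX:101299168-101325963, + strand, 9271 exonic bases) had 2130, 2187 and 1617 normalized counts in controls and 2655, 1916 and 2229 in p300-ifKO mice. Mouse 1 of the p300-ifKO group, the lowest of all 6 for Nlgn1, was here the highest, and control 3 was the lowest. Means were 1978 ± 314 and 2266 ± 371 (SD, n = 3 each), with a DESeq2 log2 fold change of 0.20 (SE 0.18, 95% interval -0.16 to 0.56, unadjusted p = 0.286, adjusted p = 0.991). It was 0.066 without p300-ifKO mouse 1 and 0.073 without control 3. The level of Nlgn3 is uncertain, because Gm21986, annotated on the same strand, covers 3823 of its exonic bases, and how reads in the shared stretch were counted is not given in the sources used here. Gm21986 itself had between 18.89 and 33.58 normalized counts.

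Of the 4 LRRTM genes, 3 lie inside alpha-catenin genes on the opposite strand, Lrrtm1 in Ctnna2, Lrrtm2 in Ctnna1 and Lrrtm3 in Ctnna3. No strand setting for the counting is stated, so reads of a gene and its antisense partner cannot be told apart where their exons overlap, which for these pairs is the case over 95 bases of Lrrtm2 alone. Lrrtm1 (ENSMUSG00000060780, chr6:77242689-77257791, + strand, 3033 exonic bases) had 2744, 2937 and 2445 normalized counts in controls and 2834, 2507 and 2748 in p300-ifKO mice. The p300-ifKO values lay within the control range. Means were 2709 ± 248 and 2696 ± 170 (SD, n = 3 each), with a DESeq2 log2 fold change of -0.0069 (SE 0.13, 95% interval -0.26 to 0.24, unadjusted p = 0.957, adjusted p = 0.997).

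Lrrtm2 (ENSMUSG00000071862, chr18:35209003-35215024, - strand, 6022 exonic bases in 1 block) had 1416, 1236 and 1539 normalized counts in controls and 838, 1576 and 1207 in p300-ifKO mice. As with Nrxn3 and Nlgn1, mouse 1 of the p300-ifKO group was the lowest of the 6 and mouse 2 the highest. Means were 1397 ± 153 and 1207 ± 369 (SD, n = 3 each), with a DESeq2 log2 fold change of -0.21 (SE 0.23, 95% interval -0.66 to 0.24, unadjusted p = 0.362, adjusted p = 0.991). Its host Ctnna1 had a log2 fold change of -0.024 (SE 0.11, DESeq2 adjusted p = 0.991), and Ctnna1 in p300-ifKO mouse 1 was at 93.3% of the control mean, against 60.0% for Lrrtm2.

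Lrrtm3 (ENSMUSG00000042846, chr10:63928472-64090277, - strand, 4251 exonic bases) had 482, 405.5 and 467 normalized counts in controls and 372, 404.7 and 406.0 in p300-ifKO mice. All 3 p300-ifKO mice lay below the control mean, but the lowest control lay between the higher pair of them. Means were 452 ± 40.7 and 394 ± 19.5 (SD, n = 3 each), with a DESeq2 log2 fold change of -0.20 (SE 0.15, 95% interval -0.49 to 0.093, unadjusted p = 0.183, adjusted p = 0.991). Lrrtm4 (ENSMUSG00000052581, chr6:80018877-80810143, + strand, 6147 exonic bases) had 760, 801 and 674 normalized counts in controls and 882, 707 and 860 in p300-ifKO mice. Mice 1 and 3 of the p300-ifKO group lay above every control and mouse 2 within their range. Means were 745 ± 64.9 and 816 ± 95.3 (SD, n = 3 each), with a DESeq2 log2 fold change of 0.13 (SE 0.15, 95% interval -0.17 to 0.43, unadjusted p = 0.389, adjusted p = 0.991). The predicted gene Gm4409 lies on the opposite strand over 25.1% of the exonic bases of Lrrtm4 and had at most 1.99 normalized counts in any library. The hosts Ctnna2 and Ctnna3 had log2 fold changes of -0.0080 (SE 0.10) and -0.64 (SE 0.58), the latter on fewer than 24 normalized counts in each mouse, with a DESeq2 adjusted p of 0.991 or more for each host.

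Counted together, 6 of the 9 genes had a negative log2 fold change and 3 a positive one, with a median of -0.19 against -0.046 over all genes tested. Without p300-ifKO mouse 1 the medians were -0.0066 and -0.014, and with 1 surrogate variable -0.012 and -0.012, so the difference from all genes was not seen in either. That variable also moved the log2 fold change of Ep300 from -0.97 to -0.49. Without p300-ifKO mouse 2 the medians were -0.21 and -0.061, and in edgeR -0.19 and 0.0006. With length and GC offsets the medians were -0.057 for the 9 genes and 0.028 for the 17053 genes tested in that fit. DESeq2, edgeR and limma-voom each called 0 of the 9, and 0 of the 9 reached an unadjusted DESeq2 p below 0.05, a mark reached by 1.32% of all genes tested. The plot of fold changes shows how far each value moved with the mice and the model used. The widest shifts were those of Nrxn3, Nlgn1 and Lrrtm2.

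**Figure D2:**
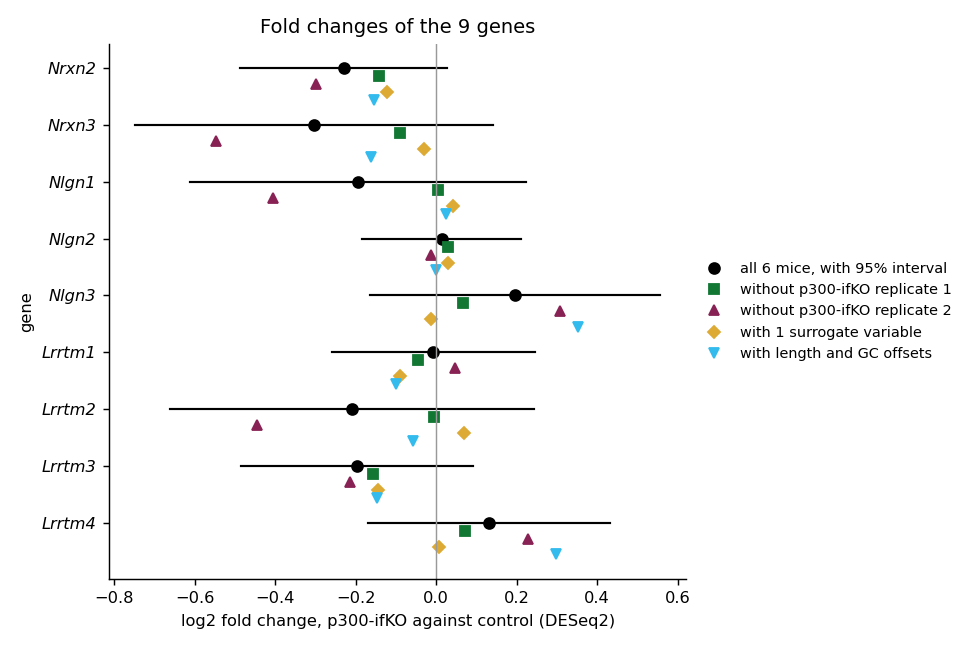
DESeq2 log2 fold change of the 9 genes, p300-ifKO against control, with all 6 mice (black, bar for the 95% interval), without p300-ifKO replicate 1 or 2, with 1 surrogate variable or with offsets that remove a smooth trend with length and GC in each library. All 9 intervals cross 0, and Nrxn3, Nlgn1 and Lrrtm2 move from -0.55, -0.41 and -0.45 without replicate 2 to -0.090, 0.0032 and -0.0066 without replicate 1.

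The level of a gene relative to another was compared per length, as normalized counts per kilobase of exon. In controls Nlgn2 had the highest level, 1141 ± 44.2 (SD, n = 3), and Lrrtm1 followed with 893 ± 81.8. The neurexins came next, Nrxn3 with 426 ± 20.6 and Nrxn2 with 411 ± 12.1. Lrrtm2 had 232 ± 25.3, Nlgn3 213 ± 33.8 and Nlgn1 149 ± 3.22. Lrrtm4 with 121 ± 10.6 and Lrrtm3 with 106 ± 9.57 had the lowest levels. In p300-ifKO mice the levels in the same order of genes were 1153 ± 40.5, 889 ± 55.9, 345 ± 110, 351 ± 41.0, 200.4 ± 61.3, 244 ± 40.0, 130.3 ± 37.3, 133 ± 15.5 and 92.7 ± 4.59. Nlgn2 lay above Lrrtm1, Lrrtm1 above Nrxn3, Nrxn2 above Lrrtm2 and Nlgn3 above Nlgn1 in each of the 6 mice. Nrxn3 and Nrxn2 could not be ordered, with overlapping ranges in controls and a ratio of control means of 1.04, and neither could Lrrtm2 and Nlgn3, with a ratio of 1.09. Nlgn1 lay above Lrrtm4 in controls, by a ratio of 1.23 with separate ranges, but the p300-ifKO ranges overlapped. Lrrtm4 and Lrrtm3 overlapped in controls. Exons of other genes cover 9.16% of the exonic bases of Nlgn1, 25.1% of those of Lrrtm4 and 3823 bases of Nlgn3. How reads in those stretches were counted is not given, so the levels of these genes and their places in the order are uncertain.

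**Figure D3:**
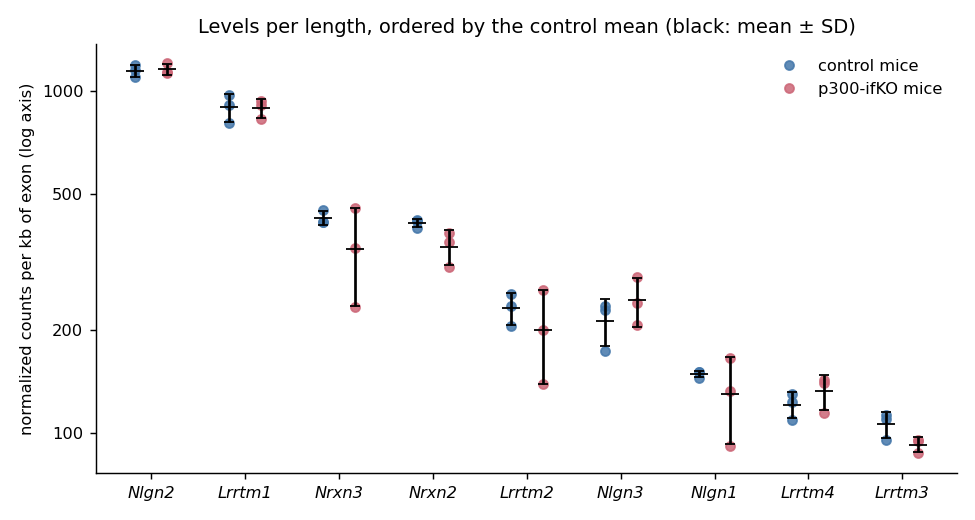
Normalized counts per kilobase of exon (log axis) of the 9 genes in 3 control (blue) and 3 p300-ifKO (red) mice, ordered by the control mean, with black bars for mean ± SD. Levels run from 1141 for Nlgn2 to 106 for Lrrtm3 in controls, and the p300-ifKO mice are spread more widely than the controls for Nrxn3, Lrrtm2 and Nlgn1.

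Within each family the composition was described as the share of its summed level per length, counting only the genes named here. Nrxn2 made up 49.1% ± 1.09 of the level of both neurexins in controls and 51.2% ± 5.35 in p300-ifKO mice (SD, n = 3 each), with 56.6%, 45.9% and 51.0% in p300-ifKO mice 1, 2 and 3. The pair was thus near balance in controls and leaned to Nrxn2 in the first of these mice and to Nrxn3 in the second. Nlgn2 held 75.9% ± 1.19 of the neuroligin level in controls and 75.5% ± 0.735 in p300-ifKO mice. Nlgn1 held 9.94% ± 0.649 and 8.50% ± 2.26, and Nlgn3 held 14.1% ± 1.65 and 16.0% ± 2.94. In p300-ifKO mouse 1 alone the shares of Nlgn1 and Nlgn3 were 6.09% and 19.0%. These neuroligin shares rest on an uncertain level of Nlgn3. Gm21986 covers 3823 of its exonic bases, and 40.9% of the 50-base stretches of Nlgn3 transcripts also occur in other genes. Lrrtm1 held 65.9% ± 3.15 of the LRRTM level in controls and 67.6% ± 3.99 in p300-ifKO mice, Lrrtm2 17.2% ± 2.65 and 15.3% ± 4.75, Lrrtm3 7.88% ± 0.935 and 7.05% ± 0.321, and Lrrtm4 8.95% ± 0.379 and 10.1% ± 1.11. Differences in share between the groups were smaller than the larger of both SDs for each gene but Lrrtm4. The LRRTM shares carry the limit on overlapped exons given above for Lrrtm4.

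The 9 genes varied in different ways over the 6 mice, measured as the log2 normalized count centred on the mean of the gene. Values were graded from gene to gene, and no division into groups was tested. In p300-ifKO mouse 1 the centred value was -0.68 for Nrxn3, -0.61 for Lrrtm2 and -0.58 for Nlgn1, followed by -0.31 for Nrxn2 and -0.18 for Lrrtm3. It was near 0 for Nlgn2 and Lrrtm1 (-0.023 and 0.072), and positive for Lrrtm4 and Nlgn3 (0.18 and 0.34). Relative to the control mean, that mouse held 55.0% of Nrxn3, 60.0% of Lrrtm2, 61.5% of Nlgn1, 74.2% of Nrxn2 and 82.3% of Lrrtm3, but 98.8% of Nlgn2 and 134% of Nlgn3. Mouse 2 of the same group held 107% of Nrxn3, 113% of Lrrtm2 and 111% of Nlgn1. Mouse 3 lay between them, with 81.6%, 86.4% and 89.2%. The closest patterns, by root mean square difference over the 6 mice, were those of Nlgn1 and Nrxn3 (0.074), Lrrtm1 and Lrrtm4, Lrrtm2 and Nrxn3, and Lrrtm3 and Nrxn2 (each 0.083), and the most distant were those of Nlgn3 and Nrxn3 (0.53). Genes of the same family could be farther apart than these pairs, as Nrxn2 and Nrxn3 (0.19) and Nlgn1 and Nlgn3 (0.47) were.

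**Figure D4:**
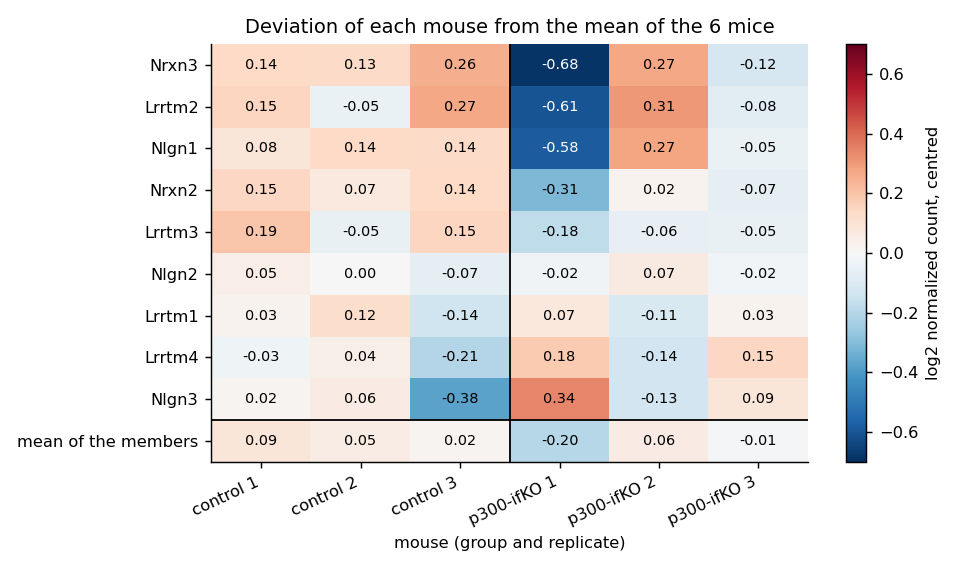
Log2 normalized count of each of the 9 genes in each mouse, centred on the mean of the 6 mice (blue lower, red higher), with the mean of the 9 genes in the bottom row. Nrxn3, Lrrtm2 and Nlgn1 are at -0.68, -0.61 and -0.58 in p300-ifKO 1 and above 0 in p300-ifKO 2, while Nlgn3 is at 0.34 in p300-ifKO 1.

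Other values varied over the same mice in the same order. Ep300, with 14273 exonic bases, was at 26.8%, 75.7% and 51.1% of the control mean in p300-ifKO mice 1, 2 and 3. The level of a gene relative to the other mice was also related to its exonic length, over 13614 genes with a mean normalized count above 50, with a Spearman rho of -0.625, 0.572 and -0.390 in those mice and of 0.260, 0.224 and 0.574 in controls. These coefficients are across genes of a library and carry no test. The median exonic length of those genes was 4610 bases. Nrxn2, Nlgn1 and Nrxn3 had between 12680 and 13812, and Lrrtm1, at 105% of the control mean in p300-ifKO mouse 1, had 3033. Nlgn2 (5785 bases) and Lrrtm2 (6022) were similar in length but were at 98.8% and 60.0% in that mouse. Lrrtm3 (4251 bases) was at 82.3% and Lrrtm4 (6147) at 118%. Nlgn3, at 134% in that mouse, had 9271 exonic bases, of which Gm21986 shares 3823. With offsets that remove a smooth trend with length and GC in each library, the DESeq2 log2 fold change was -0.15 for Nrxn2, -0.16 for Nrxn3 and 0.025 for Nlgn1. It was -0.057 for Lrrtm2, 0.35 for Nlgn3, 0.30 for Lrrtm4, -0.15 for Lrrtm3, -0.099 for Lrrtm1 and -0.0016 for Nlgn2. The DESeq2 adjusted p was 0.951 or more for each of the 9 genes. For Ep300 the same fit gave -0.81 (DESeq2 adjusted p = 0.787). What part the length trend or the amount of Ep300 left had in the values of the 9 genes was not tested. The part of the length trend in the counts of Ep300 was not tested either.

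Among 13597 other genes with a mean of at least 50 normalized counts, those closest to the mean pattern of the 9 genes were Socs5, 4632415L05Rik and Hdgfl3, with root mean square differences of 0.0096, 0.0148 and 0.0153 over the 6 mice. Their DESeq2 log2 fold changes were -0.10, -0.099 and -0.077, each with an adjusted p of 0.991. That mean pattern was shallow, with centred values of 0.086, 0.052 and 0.018 in controls and -0.20, 0.056 and -0.013 in p300-ifKO mice, because the genes with opposite deviations in p300-ifKO mouse 1 offset each other.

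Proteins that bind neurexins, neuroligins or LRRTMs were read from a list of 25 partner genes, such as the secreted cerebellins and C1q-like proteins, the latrophilins and the scaffold proteins under the membrane. Of the 25, 22 had a negative and 3 a positive log2 fold change, with a median of -0.17, where 17932 of the 32773 genes tested were negative with a median of -0.046. The median of the partners was -0.082 without p300-ifKO mouse 1, against -0.014 for all genes in that fit. With 1 surrogate variable, 17 of the 25 were negative, with a median of -0.048 against -0.012. With length and GC offsets the medians were -0.10 and 0.028. DESeq2 called 0 of the 25, with 0 at an unadjusted p below 0.05. C1ql3, which encodes a secreted synaptic ligand, had 1434, 1438 and 1493 normalized counts in controls and 503, 1454 and 923 in p300-ifKO mice. Mouse 1 was lowest and mouse 2 lay among the controls, and the DESeq2 log2 fold change was -0.60 (SE 0.31, unadjusted p = 0.055, adjusted p = 0.991). Lin7a, whose product is part of a presynaptic scaffold with CASK, had 220, 200.7 and 326 normalized counts in controls and 75.2, 254 and 128 in p300-ifKO mice, and its log2 fold change was -0.70 (SE 0.39, unadjusted p = 0.074, DESeq2 adjusted p = 0.991). Mouse 1 was again the lowest and mouse 2 again lay within the control range. Without p300-ifKO mouse 2, DESeq2 called 7 of the 25 lower, in a fit that called 1.39% of all genes lower, among them C1ql3 (log2 fold change -1.03), Lin7a (-1.28), Adgrl3, Adgrl2, Magi2 and Apba1. The 1.39% is over 32019 genes with no filter on counts, so it includes genes with few counts. Both p300-ifKO mice kept in that fit had negative length trends (Spearman rho -0.625 and -0.390), and each control had a positive one. What part this had in the calls was not tested.

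A further 39 genes comprised other synaptic adhesion genes, the alpha-catenin hosts and splicing factors of neurexins. Of these, 33 had a negative and 6 a positive log2 fold change, with a median of -0.15 against the -0.046 of all genes. That median was -0.084 without p300-ifKO mouse 1 and -0.040 with 1 surrogate variable, where all genes had -0.014 and -0.012. With length and GC offsets it was -0.059, against 0.028 for all genes in that fit. DESeq2 called 0 of the 39, with 1 at an unadjusted p below 0.05. That gene was Flrt3, which encodes a postsynaptic ligand of latrophilins. It had 1231, 1080 and 1162 normalized counts in controls and 708, 1060 and 928 in p300-ifKO mice, each p300-ifKO mouse being below each control. Its DESeq2 log2 fold change was -0.37 (SE 0.18, unadjusted p = 0.041, adjusted p = 0.991). The 10 genes of the LAR-type phosphatases and their partners, a separate presynaptic hub of adhesion, all had negative values, with a median of -0.26 and a range of -0.34 to -0.15, none of them called. The RNA-binding proteins Khdrbs1, Khdrbs2 and Khdrbs3, which act on neurexin splicing, had log2 fold changes of -0.15 (SE 0.15), -0.11 (SE 0.24) and 0.061 (SE 0.13), none called by DESeq2. Without p300-ifKO mouse 2, 7 of the 39 genes were called lower, against the same 1.39% of all genes: Flrt3, Flrt1, Slitrk3, Slitrk4, Tenm2, Tenm4 and Cadm1. The limits given for the partners in that fit apply here too, and the part of the length trends in these calls was not tested. Alternative exons of the neurexins were not analysed here, since a count per gene holds no isoforms.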

How the data were processed

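RNA was sequenced from the hippocampus of 6 mice (3 control, 3 p300-ifKO, grouped by title), and the table deposited by the authors held raw counts of reads per gene. Per the labels and the study's methods, reads were checked with FastQC (0.11.8), trimmed with Trim Galore (0.6.4), aligned with STAR (2.6.1) to mm10 (GRCm38), kept above a mapping quality of 10 and counted on Ensembl exons with Rsubread. That limit lowers counts of genes with near-identical copies, and a strand setting is not stated. The number of unused sample columns was 0.

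Identifiers were matched to GENCODE M21 (GRCm38; 55230 of 55471, or 99.57%), and promoter windows came from RefSeq (GRCm38.p6). The comparison was a DESeq2 two-sided Wald test (version 1.42.0 in R 4.3.3; the submitters name 1.30.1) without covariates, adjusted by Benjamini-Hochberg over all 32773 genes with a p. Means are given ± SD with n = 3, and intervals cover 95%. Patterns used log2(normalized count + 1). p-values measure the spread between single mice.

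The members and lists were chosen with earlier results of these data known. Named were all 9 genes, Ep300, Crebbp, the called Esr1 and Arsi, the LRRTM hosts, the 3 genes of most similar pattern, and from each other list the genes with an unadjusted p below 0.05, otherwise the 2 with the smallest. The splicing factors, and the genes called without 1 mouse, were named beyond that rule after their values were seen. Alternatives were edgeR (4.0.16), limma-voom (3.58.1), TMM factors, other count filters, DESeq2 without its Cook or its independent filter, a replicate block, a threshold of 0.1, omission of each mouse in turn, 1 surrogate variable (sva 3.50.0) and smooth length and GC offsets (mgcv 1.9.3). The fits were tested on simulated data.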

Additional observations from a re-analysis of the deposited data

How the results depend on the processing

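Each of the 9 genes had 16 alternative log2 fold changes, 144 in all, of which 129 kept their direction and side of the threshold, 14 (in 5 genes) changed direction and 1 passed the threshold. The reversed values were close to 0. Nlgn1 was at 0.0032 without p300-ifKO mouse 1, 0.043 with 1 surrogate variable and 0.025 with length and GC offsets. Nlgn2 was at -0.011 without control 3, -0.012 without p300-ifKO mouse 2 and -0.0016 with offsets. Nlgn3 was at -0.012 and Lrrtm2 at 0.069 with the surrogate variable. Lrrtm1 was at 6.1e-05 in limma-voom, 0.0045 with TMM factors, 0.0046 in edgeR without a filter, 0.0036 and 0.058 without control 1 or 2 and 0.046 without p300-ifKO mouse 2. Crebbp was at 0.12 with offsets. Leaving out 1 mouse at a time, Nlgn1 lay between -0.41 and 0.0032, Nlgn2 between -0.012 and 0.043, Nlgn3 between 0.066 and 0.31 and Lrrtm1 between -0.073 and 0.058. The cause of these reversals was not tested. Over all alternatives Nrxn3 ranged from -0.55 to -0.031 (adjusted p from 0.0314 to 1, DESeq2 without p300-ifKO mouse 2 giving the lowest) and Nrxn2 from -0.30 to -0.12. With each mouse left out in turn, DESeq2 called between 2 and 938 genes in all, 0 to 1 of the 9, 0 to 7 of the 25 partners and 0 to 7 of the 39 other genes. The upper end was reached without p300-ifKO mouse 2, where Ep300 was called as well (log2 fold change -1.36, adjusted p = 0.000356). Ep300 also passed with 1 surrogate variable (-0.49, adjusted p = 0.00205). In TPM, 8 of the 9 genes moved by less than the SD, and the log2 ratio of Nrxn2 was -0.27 in place of -0.23. For same-numbered mice, the correlations of their deviations from the group means were 0.27, -0.28 and 0.13 over 17071 genes. With so few mice these values cannot show whether the mice were paired. With a replicate block DESeq2 called 4 genes in all and 0 of the 9, and Ep300 was at -1.06 (DESeq2 adjusted p = 0.134). The lowest value of any of the 9 genes was 372 normalized counts, of Lrrtm3 in p300-ifKO mouse 1, and with all 6 mice the 95% intervals span 0 for all 9.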
